A study of Homo sapiens with 2 samples.

Results

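The small nuclear RNAs (snRNAs) described here are the RNA parts of the major and minor spliceosomes, together with the U7 RNA of histone message processing. They were chosen by symbol, from a list of 10: RNU2-59P, RNU4-1, RNU4-2, RNU5A-1 and RNU5B-1 for the major spliceosome, RNU11, RNU12, RNU4ATAC and RNU6ATAC for the minor spliceosome, and RNU7-1. The list was selected on measured ratios of these same libraries, so the ratios below are a description, and none of them was tested. Of 57820 gene IDs in the count tables, 8 belonged to the 10 listed symbols. Of those 8, 6 had reads and a mean of 1 or more in CPM, the read count scaled to the size of its library, and RNU6ATAC and RNU7-1 had no read in either library. The IDs that GENCODE 29 gives RNU11 and RNU12 were not among the 57820, but at each of these loci the tables held 1 other single-exon entry that starts at the snRNA. These 2 entries, which were taken in once the values were known, are called the entries at the RNU11 and RNU12 loci.

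HEK293T is an established human embryonic kidney line. Its RNA was sequenced in 1 library after a control siRNA (the control library) and in 1 after an siRNA (the SRα library) against SRα, the alpha subunit of the receptor that brings ribosomes bound by the signal recognition particle to the endoplasmic reticulum. The cell line, the TRIzol extraction and the library kit, which selects RNA with a poly(A) tail, were shared by both. With 1 library a group there is no replicate check, and every interval given is a 95% interval that covers counting error only. The 2 libraries held 2445200 and 3896721 reads assigned to genes. SRPRA, the gene of SRα, had 507 reads in the control library and 449 in the SRα library. On the CPM scale this was 205 and 117, and its log2 ratio of SRα siRNA over control siRNA was -0.81 (interval -0.998 to -0.63).

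In the major spliceosome, the U2 snRNA pairs with the branch point of the intron, while U4 carries U6 into the complex and U5 holds the exons in line for joining. The minor spliceosome removes a small class of introns, with U11 at the 5′ splice site, U12 at the branch point, and U4atac and U6atac in the places of U4 and U6, and it shares U5 with the major one. U7 is no splicing RNA: it pairs with histone messages and directs the cut that forms their 3′ ends. Most of these RNAs bind a ring of Sm proteins and are made by RNA polymerase II, but they end in a processed 3′ end rather than a poly(A) tail, whereas U6 and U6atac are made by RNA polymerase III and bind LSm proteins. In these libraries, an unequal carry-over of RNA without a tail through the poly(A) selection was not tested. A lower level in every cell and a smaller share of cells with the RNA cannot be told apart in such bulk samples.

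GENCODE 29 held the transcript of all 10 listed RNAs, each of a single exon and of gene type snRNA. The sequences below are read from it, 5′ to 3′, with T for U. The first set is printed to show how far each gene resembles its copies, since alignments to several places were set apart from the gene counts. Capitals mark the bases that differ between the near copies RNU4-1 and RNU4-2 and between RNU2-59P and RNU2-2P, a U2 gene without reads in these tables.
RNU4-1: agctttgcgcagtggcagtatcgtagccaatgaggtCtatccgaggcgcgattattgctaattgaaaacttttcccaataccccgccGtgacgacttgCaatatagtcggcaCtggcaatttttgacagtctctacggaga
RNU4-2: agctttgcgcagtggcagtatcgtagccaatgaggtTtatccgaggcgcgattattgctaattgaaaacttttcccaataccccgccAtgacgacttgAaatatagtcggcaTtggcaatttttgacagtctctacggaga
RNU2-59P: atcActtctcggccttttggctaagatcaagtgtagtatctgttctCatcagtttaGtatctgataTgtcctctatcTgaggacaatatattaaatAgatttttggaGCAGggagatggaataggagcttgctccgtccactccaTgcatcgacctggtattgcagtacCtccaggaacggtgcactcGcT
RNU2-2P: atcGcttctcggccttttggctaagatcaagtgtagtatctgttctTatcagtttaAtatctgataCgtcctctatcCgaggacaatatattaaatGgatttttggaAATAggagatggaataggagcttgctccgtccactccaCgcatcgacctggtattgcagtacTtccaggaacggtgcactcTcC
RNU4-1 and RNU4-2 differed at 4 of 141 bases. With positions counted from 1 at the 5′ end and the base of RNU4-1 first, these were C37T, G88A, C99A and C113T. RNU2-59P differed from RNU2-2P at 14 of 191 bases and from RNU2-1, the other U2 gene, at 9.

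The second set shows the RNAs of the minor spliceosome and U7. Capitals mark exact matches to short motifs on the RNA's own strand: the Sm site ATTTTTG in RNU12 and RNU4ATAC, the branch-pairing TAAGGAA in RNU12, the 5′ splice site pairing AAGGAGA in RNU6ATAC, and in RNU7-1 the histone-pairing CTCTTTT followed by the U7 form of the Sm site, ATTTGTC. RNU11 held no exact match to these motifs and is printed without capitals.
RNU11: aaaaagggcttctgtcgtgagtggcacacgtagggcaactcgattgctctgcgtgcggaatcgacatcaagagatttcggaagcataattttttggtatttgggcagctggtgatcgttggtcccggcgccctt
RNU12: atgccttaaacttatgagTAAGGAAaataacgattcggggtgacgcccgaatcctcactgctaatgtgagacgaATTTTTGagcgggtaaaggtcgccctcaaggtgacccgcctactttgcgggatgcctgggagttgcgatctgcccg
RNU4ATAC: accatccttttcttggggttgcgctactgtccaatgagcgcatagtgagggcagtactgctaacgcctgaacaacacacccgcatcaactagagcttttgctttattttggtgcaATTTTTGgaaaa
RNU6ATAC: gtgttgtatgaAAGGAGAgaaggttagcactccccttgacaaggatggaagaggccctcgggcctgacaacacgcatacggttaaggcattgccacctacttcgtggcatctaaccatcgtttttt
RNU7-1: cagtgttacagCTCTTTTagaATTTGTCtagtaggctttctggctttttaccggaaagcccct
A match describes the letters alone. ATTTTTG occurred in 6.11% of 1900 snRNA transcripts of GENCODE 29, TAAGGAA in 0.368%, AAGGAGA in 1.74%, CTCTTTT in 5.16% and ATTTGTC in 6%. In the major class, ATTTTTG lay at bases 99 to 105 of RNU2-59P and at bases 119 to 125 of both U4 RNAs. The branch-pairing letters of U2, GTAGTA, lay at bases 33 to 38 of RNU2-59P and in 3.58% of snRNA transcripts.

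Genes also differed in how much of their sequence occurs in other genes, counted among GENCODE 29 transcripts and not in the genome. Of the 50-base windows of RNU2-59P, 0 of 142 were found in a transcript of another gene. The windows of RNU2-1 and RNU2-2P were all shared, 142 of 142 each, with transcripts of 21 other genes. RNU2-2P lay at 0 reads in both libraries. All of its 191 bases also lie in an exon of WDR74, so reads there could have been set aside as matching several genes, which was not tested. The reads of RNU2-1 were not analysed here, because its ID was not among those of the tables. The U2 row of the major class is therefore a gene named as a pseudogene, on chromosome 10 inside BTRC and on the opposite strand. Of 92 windows, RNU4-1 shared 12, with RNU4-2 and RNU4-82P, and RNU4-2 shared 1. RNU11, RNU12 and RNU4ATAC shared 0 of 85, 101 and 78, and RNU6ATAC shared 34 of 77. Shared windows did not go with missing reads throughout: the U5 gene RNU5E-1, which is not on the list, shared 71 of 71 windows and had 7396 and 12325 reads, while RNU6ATAC had no read. Windows were also called shared where another gene model covers the same place, and whether RNU5E-1 is such a case was not tested.

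RNU2-59P had the highest ratio of the 4007 genes that averaged 50 CPM or more. It had 1596 reads in the control library and 6065 in the SRα library, which is 645 and 1576 CPM. The log2 ratio was 1.29 (interval 1.21 to 1.37), a fold of 2.45. Among all genes by reads, it moved from rank 194 in the control library to rank 47.

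The other entries named as U2 pseudogenes gave a smaller ratio when summed. Without RNU2-59P, 68 entries named as U2 pseudogenes, 36 of them with reads, summed to 436 and 781 reads, a log2 ratio of 0.20 (interval 0.03 to 0.38). The ratio of RNU2-59P exceeded theirs by 1.09 on the log2 scale (interval 0.89 to 1.27). RNU2-61P had 86 and 178 reads and a log2 ratio of 0.41 (interval 0.03 to 0.80). The other 9 U2 pseudogenes averaging 5 CPM or more had intervals that included 0, and their log2 ratios ran from -0.09 for RNU2-3P to 0.89 for RNU2-68P, which had 12 and 35 reads. RNU2-59P thus held most of the reads counted under entries named as U2 pseudogenes, and its ratio lay above that of the others summed.

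RNU4-1, the U4 gene with nearly all of the U4 reads, was the second most-read entry of either table. It had 22424 reads in the control library and 47958 in the SRα library, or 0.917% and 1.23% of all gene reads. The levels were 9056 and 12464 CPM and the log2 ratio was 0.46 (interval 0.44 to 0.48). It ranked 19 of 4007 by ratio. RNU4-2, its neighbour on chromosome 12, had 1666 and 4182 reads, 673 and 1087 CPM, and a log2 ratio of 0.69 (interval 0.61 to 0.77), rank 6. The SRα library was the higher one for both U4 genes.

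The ratio of RNU4-2 exceeded that of RNU4-1 by 0.23 on the log2 scale (interval 0.15 to 0.32). In shares of the U4 pair, RNU4-2 went from 6.92% (interval 6.60 to 7.24) to 8.02% (interval 7.79 to 8.26), and RNU4-1 from 93.1% to 92.0%. RNU4-1 shares more of its windows than RNU4-2 does, and the part of shared reads in the shift was not tested. The 88 entries named as U4 pseudogenes held 10 and 15 reads together.

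Both listed U5 genes gave nearly the same CPM in the 2 libraries. RNU5A-1, on chromosome 15 inside PARP16 and on its opposite strand, had 504 and 751 reads, 204 and 195 CPM, and a log2 ratio of -0.06 (interval -0.23 to 0.11). RNU5B-1, on the same chromosome, had 449 and 677 reads, 181 and 176 CPM, and a log2 ratio of -0.04 (interval -0.22 to 0.13). Their ratios differed by 0.02 (interval -0.22 to 0.26). The ratio of the U4 pair exceeded that of the U5 pair by 0.53 on the log2 scale (interval 0.41 to 0.65).

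The 2 listed genes were a small part of the U5 reads. Over all 5 U5 genes, RNU5E-1 held 81.0% of 9129 reads in the control library (interval 80.2 to 81.8) and 82.7% of 14903 in the SRα library (interval 82.1 to 83.3). As all windows of RNU5E-1 occur in RNU5D-1 or another entry as well, how its reads were assigned is uncertain. RNU5A-1 held 5.52% and 5.04%, and RNU5B-1 held 4.92% and 4.54%. RNU5E-1 had 7396 and 12325 reads and a log2 ratio of 0.10 (interval 0.06 to 0.14). RNU5F-1, at -0.06, and RNU5D-1, at -0.13, had intervals that included 0, as both listed U5 genes did. The 5 genes together gave 0.07 (interval 0.03 to 0.11), below the 0.48 (interval 0.46 to 0.50) of the U4 pair.

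In the minor class, the entry at the RNU11 locus on chromosome 1 had 1142 reads in the control library and 2270 in the SRα library. U11 recognises the 5′ splice site of minor introns. The entry is 131 bases long and equals the first 131 of the 134 bases of RNU11. Its levels were 461 and 590 CPM, and its log2 ratio was 0.36 (interval 0.25 to 0.46).

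The entry at the RNU12 locus on chromosome 22 had 5245 and 10311 reads, 2118 and 2680 CPM, and a log2 ratio of 0.34 (interval 0.29 to 0.39). In GENCODE 29 this entry is 664 bases long. The 150 bases of RNU12, the branch-point RNA, are its start, and reads from the other 514 bases cannot be told apart from those of U12 here. The ratios of the RNU12 and RNU11 entries differed by -0.02 (interval -0.13 to 0.10). By ratio the 2 entries ranked 62 and 75 of 4007, RNU11 first, and the SRα library was the higher one for both.

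RNU4ATAC, which takes the place of U4 in the minor spliceosome, was the least-read member with reads. It lies on chromosome 2 inside CLASP1, on the opposite strand. It had 92 and 146 reads, 37.2 and 37.9 CPM, and a log2 ratio of 0.03 (interval -0.36 to 0.42). At this depth its ratio could not be separated from that of either locus entry. The RNU11 entry exceeded it by 0.32 (interval -0.08 to 0.73) and the RNU12 entry by 0.31 (interval -0.09 to 0.70). The ratio of RNU4-1, its counterpart in the major spliceosome, exceeded it by 0.43 (interval 0.04 to 0.82), and the sequences of the 2 RNAs had 51.9% identity.

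RNU6ATAC on chromosome 9 and RNU7-1 on chromosome 12 had 0 reads in both libraries. A count of 0 allows up to 3 reads as a one-sided limit, which is 1.21 CPM in the control library and 0.780 CPM in the SRα library, and no fold is given. Of the 50-base windows of RNU6ATAC, 43 of 77 were its own and 34 were shared. Reads from the shared ones could have gone uncounted, and its carry-over through the poly(A) selection was not tested. For RNU6ATAC the limit above therefore holds for counted reads and not for its level. The 41 entries named as U6atac pseudogenes also held 0 reads. RNU7-1 lies within an exon of C12orf57 on the same strand, and 13 of its 14 windows were shared with that gene, which had 12 reads in each library. Reads at RNU7-1 could have been set aside as matching several genes, so its 0 and the limit above are no measure of its level. The 148 entries named as U7 pseudogenes held 9 and 11 reads. The U7 class therefore gave no value to set against the others.

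**Figure D1:**
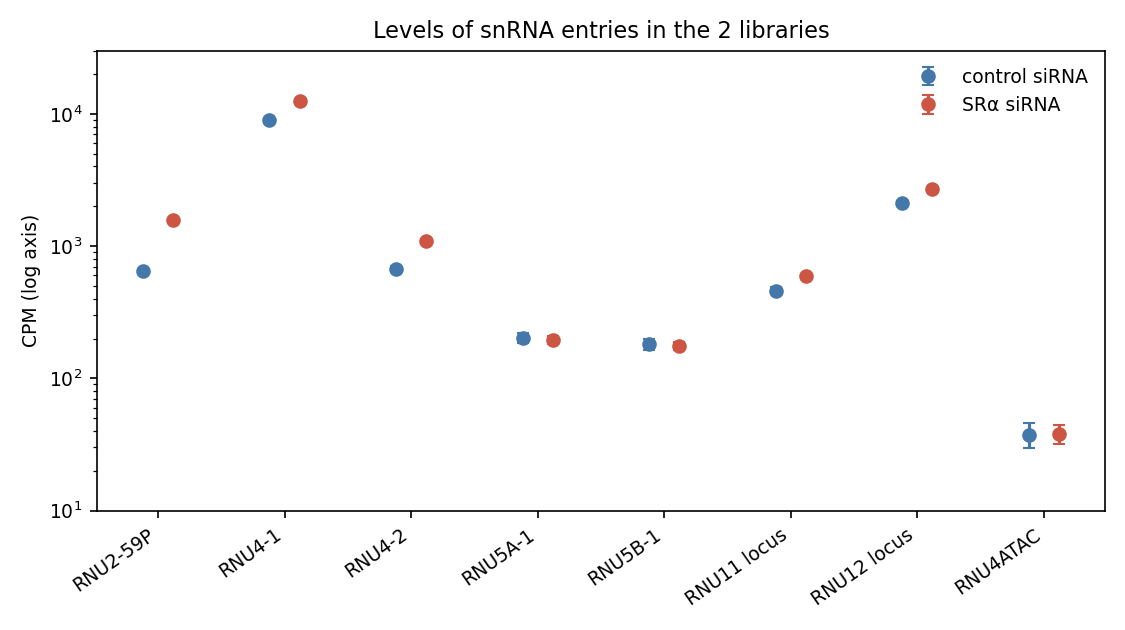
CPM of 8 snRNA entries (log axis) in the control siRNA and SRα siRNA libraries, 1 library each, with bars for the 95% exact Poisson interval, which covers counting error only. RNU4-1 stands at 9056 and 12464 CPM, the U5 and RNU4ATAC points nearly coincide, and RNU6ATAC and RNU7-1, at 0 reads, are not drawn.

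Per length of the entry, with the RNU12 entry at 664 bases, the order differed between the libraries in the place of RNU2-59P. The order is one of counted reads and does not rank the RNAs by level. Alignments to several places were not counted, and carry-over through the poly(A) selection was not tested. In the control library, the CPM per kilobase was 64224 for RNU4-1, 4772 for RNU4-2, 3520 for the RNU11 entry, 3374 for RNU2-59P and 3190 for the RNU12 entry. It was 1755 for RNU5A-1, 1563 for RNU5B-1 and 293 for RNU4ATAC. On this scale, the counting interval of RNU2-59P overlapped those of both locus entries, and that of RNU5A-1 overlapped that of RNU5B-1. These differences were not tested directly, so overlap alone does not settle their order.

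If all reads of the RNU12 entry came from the 150 bases of U12, its count would be 14121 CPM per kilobase in the control library. In the SRα library it would be 17865, and it would stand second to RNU4-1 in both. The place of U12 in the order is therefore not settled.

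With the RNU12 entry again at 664 bases, RNU2-59P stood second in counted reads per length in the SRα library, at 8252 CPM per kilobase. RNU4-2 was next at 7708. The counting interval of RNU2-59P, 8046 to 8463, lay above that of RNU4-2, which was 7476 to 7945. RNU4-1 stood first at 88395, and the RNU11 entry at 4503 and the RNU12 entry at 4036 followed, with intervals that did not overlap. RNU5A-1 at 1683 and RNU5B-1 at 1517 again overlapped, and RNU4ATAC was last at 299.

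Of the 6 members counted under their own ID, 1 reached 2-fold higher in the SRα library, against 2.15% of the 12747 genes averaging 1 CPM or more. A level at least 1.5-fold higher was found for 2 of 6, against 6.55% of the genes, and one at least 1.5-fold lower for 0 of 6, against 6.97%. Because the list was selected on these ratios, nothing is read from the counts. The genes of low counts widen these shares. Among the 4007 genes averaging 50 CPM or more, 0.175% reached 1.5-fold higher, which is 7 genes, and RNU2-59P and RNU4-2 were among them. At least 1.5-fold lower were 0.0499% of them. The central range of these genes, from the 1st to the 99th percentile, was -0.35 to 0.39 on the log2 scale. RNU2-59P, RNU4-2 and RNU4-1 lay above it, and the locus entries and the U5 genes lay inside it. The median of the 4007 genes was 0.04.

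**Figure D2:**
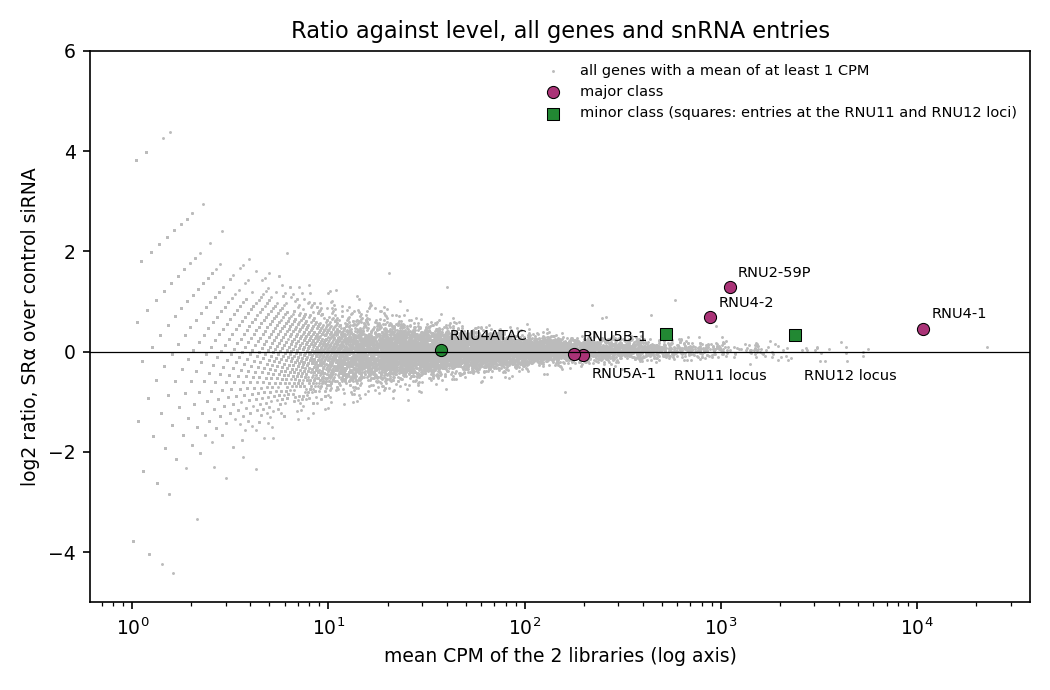
The log2 ratio of SRα siRNA over control siRNA against the mean CPM of the 2 libraries (log axis), with a grey point for each of the 12747 genes of at least 1 CPM and named points for the snRNA entries. RNU2-59P, RNU4-2 and RNU4-1 stand above the grey points of like level, while RNU4ATAC, RNU5A-1 and RNU5B-1 lie near 0.

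The summed reads of the major class were 26639 in the control library and 59633 in the SRα library. The levels were 10758 and 15498 CPM, a log2 ratio of 0.53 (interval 0.51 to 0.55) and a fold of 1.44, and the median of the 5 members was 0.46. RNU4-1 makes up most of the sum. Without RNU4-1 the class gave 0.83, and without RNU2-59P it gave 0.46. The major class thus held 1 member at over 2-fold, a U4 pair between, and a U5 pair near 0.

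By gene ID, the minor class is RNU4ATAC alone, with its log2 ratio of 0.03, as RNU6ATAC had no reads. The ratio of the major class exceeded it by 0.50 on the log2 scale (interval 0.10 to 0.88). With the entries at the RNU11 and RNU12 loci, the minor class had 6479 and 12727 reads, 2616 and 3308 CPM, and a log2 ratio of 0.34 (interval 0.29 to 0.38), a fold of 1.26. The difference between the classes was then 0.19 (interval 0.14 to 0.24). Most reads of this minor class, 5245 and 10311, were those of the RNU12 entry. Reads from its 514 bases beyond U12 cannot be told apart from those of U12.

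Which members were summed moved that difference by more than 1.5 times. With the locus entries kept, it was 0.12 (interval 0.07 to 0.17) without RNU2-59P and 0.50 (interval 0.43 to 0.56) without RNU4-1. By gene ID it was 0.43 without RNU2-59P and 0.80 without RNU4-1. Gene by gene, the ratio of RNU4-1 exceeded that of the RNU12 entry by 0.12 (interval 0.07 to 0.17), while those of RNU5A-1 and RNU5B-1 lay below both locus entries. The 2 classes were therefore not separate sets of ratios.

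Families of snRNA that are not on the list are given by the reads counted for them. Alignments to several places were set apart, so reads of near-identical copies could be missing. These counts are therefore no measure of the level of U1 or U6 beside U4. U1, which pairs with the 5′ splice site of major introns, had 144 and 205 reads over 21 gene entries, a log2 ratio of -0.13 (interval -0.44 to 0.19). Its 107 pseudogene entries had 512 and 753 reads and gave -0.08 (interval -0.24 to 0.09). U6, the RNA that U4 carries, had 1 read and 0 reads over 6 genes, and 13 and 29 reads over 1264 pseudogene entries. Entries were also summed where the symbol starts with RNU or RNVU and a number, which leaves out the entries at the RNU11 and RNU12 loci. These 1805 entries, 135 of them with reads, had 36937 and 76577 reads and a log2 ratio of 0.42 (interval 0.40 to 0.43). RNU4-1 alone held most of these reads.

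Other short RNAs that lack a poly(A) tail were set beside the snRNAs, since they pass through the same poly(A) selection. Of 29 listed, 24 had an entry and 18 were measured. Of these 18, 11 had a higher ratio than 0 and 7 a lower one, with a median of 0.14. RPPH1 was listed but absent. The entry that covers its 333 bases, with 8484 and 11530 reads, did not meet the rule for locus entries and was left out. RNY1, a Y RNA bound by the Ro protein and the most-read of them, had 11626 and 15809 reads and a log2 ratio of -0.19 (interval -0.23 to -0.16). TERC, the RNA of telomerase, had 1177 and 1678 reads and gave -0.12 (interval -0.23 to -0.02). The entry at the locus of RMRP, the RNA of the ribonuclease MRP, had 2720 and 4303 reads and gave 0.03 (interval -0.04 to 0.10).

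The Cajal body RNA SCARNA12, which overlaps PHB2, gave 0.19 (interval 0.04 to 0.34), and the nucleolar RNA SNORA73B gave -0.01. At lower counts, SCARNA9 gave 0.48 (interval 0.02 to 0.96) and SNORD17 gave 0.51 (interval 0.02 to 1.03). The entry at the locus of RN7SK, an RNA that holds back the elongation factor P-TEFb, had 7 and 32 reads and gave 1.51 (interval 0.35 to 2.98). The remaining ones of at least 5 CPM were VTRNA1-1 at -0.23, SCARNA13 at -0.50, SCARNA22 at -0.16, SCARNA5 at 0.18, SCARNA6 at 0.32, SCARNA17 at 0.35, SCARNA10 at 0.42 and the entry at the SCARNA2 locus at 0.10, all with intervals that included 0.

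Summed, the 21 other short RNAs under their own ID had 14203 and 19859 reads and a log2 ratio of -0.15 (interval -0.18 to -0.12). This lay below the 0.53 of the major class and the 0.34 of the minor class with its locus entries. RNY1, at -0.19, made up most of the sum, so the summed ratio mainly follows that 1 RNA. The median of the 18 measured short RNAs, locus entries included, was 0.14. A sum without RNY1 was not computed. Scaled to these RNAs instead of the whole table, each snRNA ratio stood higher by 0.15. RNU4-1 then stood at 0.61, RNU2-59P at 1.44, and RNU5A-1 and RNU5B-1 at 0.09 and 0.11.

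**Figure D3:**
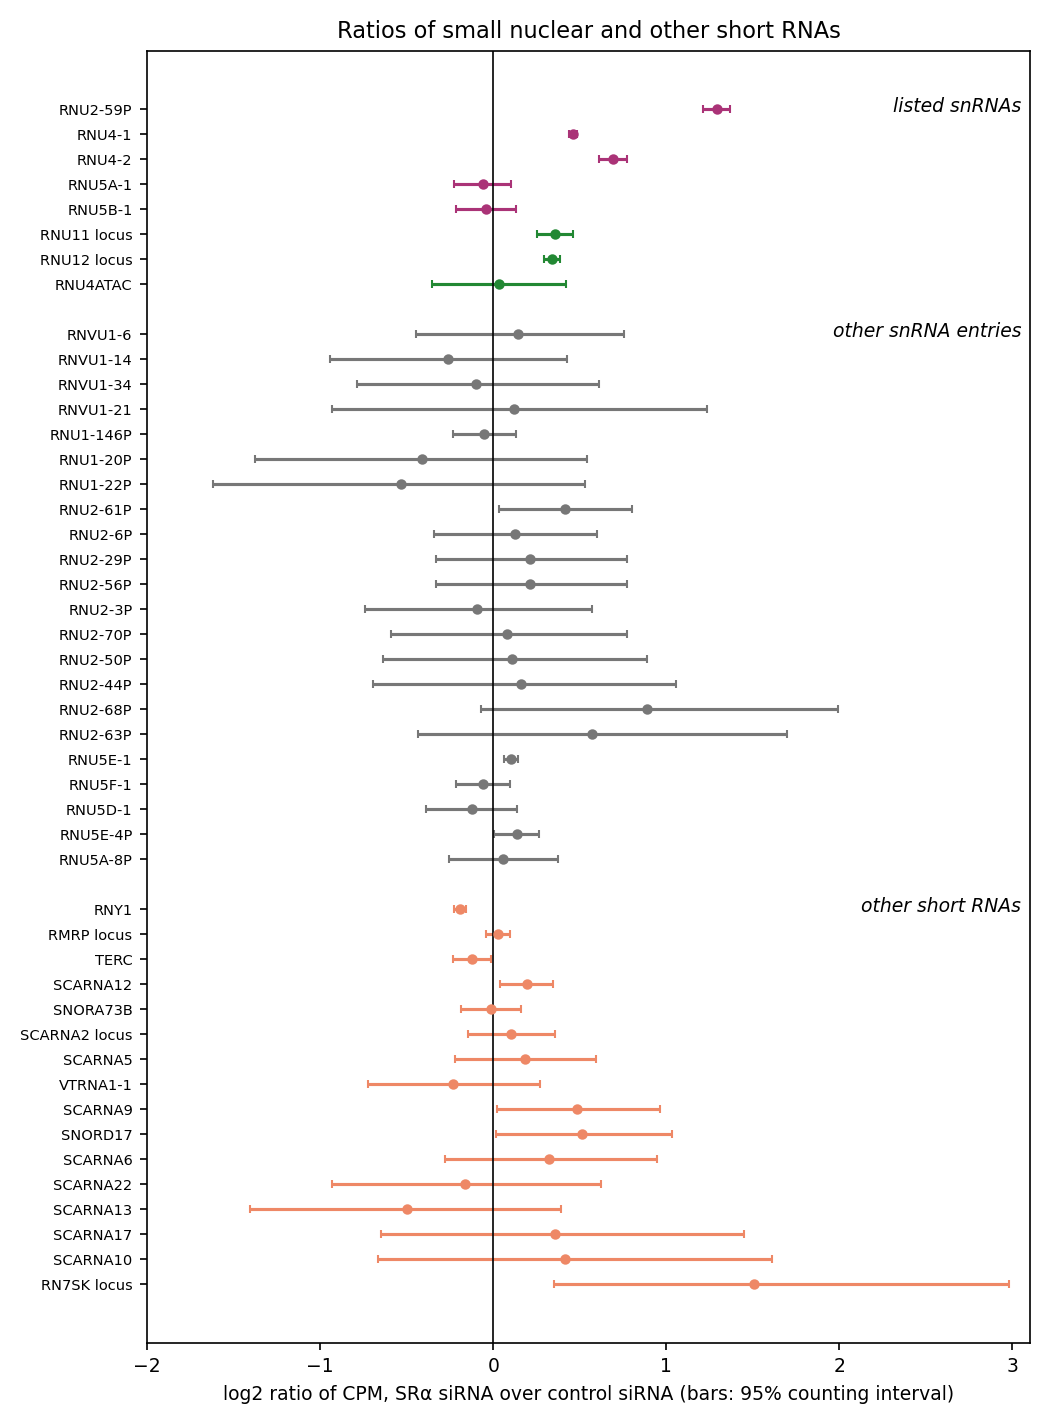
The log2 ratio of CPM, SRα siRNA over control siRNA, of the listed snRNAs with reads, of other snRNA entries of at least 5 CPM and of other short RNAs of at least 5 CPM, with bars for the 95% counting interval. RNU2-59P at 1.29, RNU4-2 at 0.69 and RNU4-1 at 0.46 lie right of 0 with short bars, and RNY1 lies left of 0 at -0.19.

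Messages of proteins that bind, make or transport snRNAs lay close to equal in the 2 libraries. Over 9 lists, 136 of 139 genes were measured, of which 94 were higher in the SRα library and 42 lower, with a median log2 ratio of 0.06. Of all genes of at least 1 CPM, 51.4% were higher, with a median of 0.01, and of those of at least 50 CPM 59.9% were higher, with a median of 0.04. A level at least 1.5-fold higher was found for 2 of the 136, against 6.55% of all genes, and one at least 1.5-fold lower for 0, against 6.97%. The interval lay above 0 for 24 of the 136 and below 0 for 1, against 5.46% and 3.39% of all genes. The counts of each list below are to be read against these shares, and whether the levels of the listed genes moved their counts was not tested.

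The Sm proteins form the ring on every listed RNA but RNU6ATAC, with a pair of members exchanged in U7. Of 7 measured Sm genes, 5 were higher and 2 lower, with a median of 0.07. SNRPB, with 1891 and 3106 reads, had a log2 ratio of 0.08 (interval -0.003 to 0.16), and SNRPG, the lowest, had -0.28 (interval -0.84 to 0.28). Of 6 LSm genes, whose ring binds U6, 4 were higher and 2 lower, with a median of 0.02, and LSM8 gave 0.20 (interval 0.01 to 0.40). Neither ring held a message with the ratio of RNU4-1 or RNU2-59P.

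Of 20 genes of U2 proteins, 16 were higher and 4 lower, with a median of 0.07, and 7 intervals lay above 0. HTATSF1, a U2-associated factor, had a log2 ratio of 0.29 (interval 0.17 to 0.42), SF3A3 had 0.18 (interval 0.07 to 0.28), and SUGP1 was lowest at -0.21. SF3B1, which holds U2 at the branch point, had 0.09. Of 8 U1 genes, 5 were higher and 3 lower, with a median of 0.10. PRPF39 gave 0.46 (interval 0.15 to 0.78) and SNRPC gave 0.29 (interval 0.09 to 0.50), while SNRNP70 gave -0.04 and SNRPA -0.15.

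Of 20 genes of the particle that unites U4, U6 and U5, 14 were higher and 6 lower, with a median of 0.04. PRPF3, a U4/U6 protein, had a log2 ratio of 0.34 (interval 0.06 to 0.63), and PRPF31, which binds the U4 stem, had -0.18. The most-read genes of the list, those of the U5 proteins PRPF8, with 3488 and 5425 reads, and SNRNP200, gave 0.00 and 0.04. None of the 20 was at least 1.5-fold apart.

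Of 13 genes of minor spliceosome proteins, 7 were higher and 6 lower, with a median of 0.05. TXNL4B, a relative of a U5 protein, had 37 and 94 reads and gave 0.70 (interval 0.15 to 1.30). RBM48 gave 0.45 (interval -0.11 to 1.03). The U11/U12 proteins SNRNP48 and SNRNP35 gave 0.22 and -0.18, and ZRSR2, which reads the 3′ splice site, gave -0.27. Of 11 genes of U7 proteins and histone message processing, 7 were higher and 4 lower, with a median of 0.07. SLBP, which binds the histone stem-loop, had 558 and 999 reads and gave 0.20 (interval 0.05 to 0.36), while LSM11 and LSM10, the Sm-like pair of U7, gave 0.36 and -0.22 with intervals that included 0.

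Of 27 genes of snRNA transcription and 3′ processing, 16 were higher and 11 lower, with a median of 0.06. ELL2, an elongation factor, had 13 and 41 reads and gave 0.9997 (interval 0.09 to 2.05). INTS9, the partner of the catalytic subunit in the Integrator complex that cuts snRNA 3′ ends, had 112 and 117 reads and gave -0.57 (interval -0.96 to -0.19), the only interval of the 136 below 0. USB1, which trims U6, gave 0.54, and INTS3 and INTS7 gave -0.01 and 0.01.

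Of 24 genes of snRNP assembly, export and import, 20 were higher and 4 lower, with a median of 0.06. NCBP2, the cap-binding subunit that takes part in snRNA export, had 142 and 300 reads and gave 0.44 (interval 0.15 to 0.74). XPO1, the exporter, had 1859 and 3125 reads and gave 0.11 (interval 0.03 to 0.20), and KPNB1, which imports the assembled particle, gave 0.00. In the SMN complex, which loads the Sm ring, GEMIN8 gave 0.29 and DDX20 gave -0.07.

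**Figure D4:**
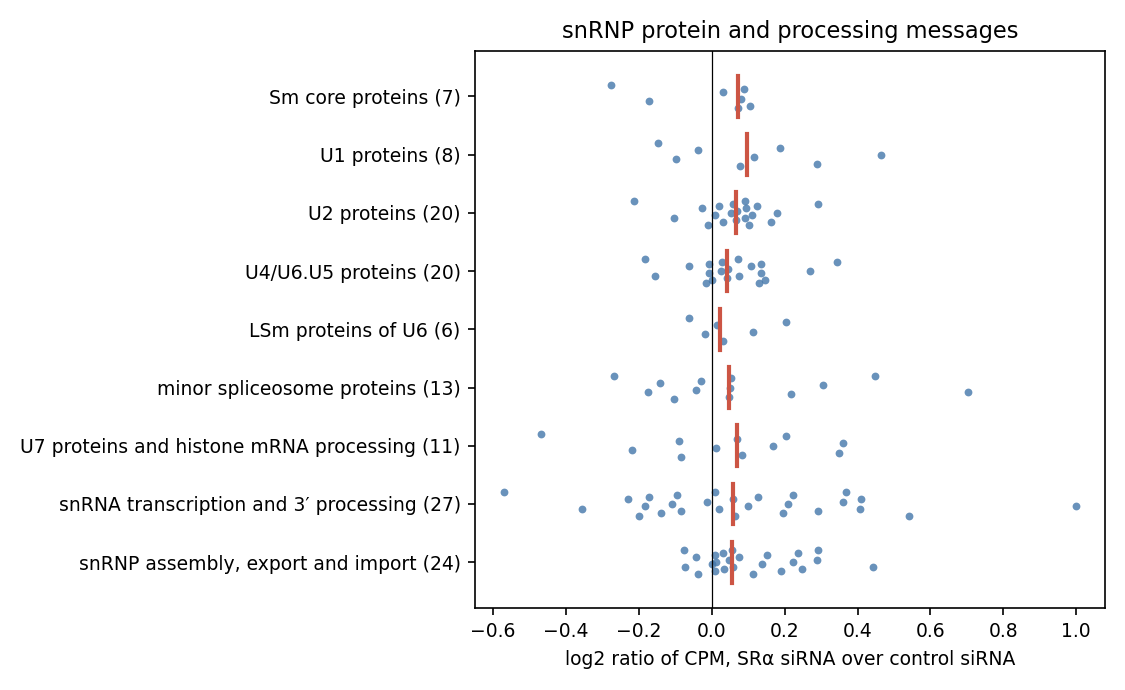
The log2 ratio of CPM, SRα siRNA over control siRNA, of each measured gene in 9 lists of snRNP proteins and snRNA factors, with the number of genes in brackets and a red line at each median. The medians run from 0.02 to 0.10, and ELL2 at 0.9997, TXNL4B at 0.70 and INTS9 at -0.57 stand farthest from 0.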

How the data were processed

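RNA of HEK293T cells was measured in 2 libraries, 1 a group, made with the TruSeq Stranded mRNA kit per the labels. The deposited tables hold raw read counts, as whole numbers for each gene ID. Per the submitters' processing notes, cutadapt, STAR 2.5.2b and build hg19 were used. Which program counted reads, with which strand setting and annotation, is not given in the sources used here. The 5 summary lines that end each table were left out. Alignments that were not unique made up 79.6% and 76.5% of entries, and reads that matched several genes 4.67% and 4.58% of unique ones.

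The listed snRNAs and the gene lists were chosen with earlier results of these data known. Libraries were scaled by TMM in edgeR 4.0.16 (R 4.3.3), with effective sizes of 2476276 and 3847820. A log2 ratio is that of CPM, SRα siRNA over control siRNA, after adding a prior count of 0.5 in proportion to library size. Its 95% interval is exact (Clopper-Pearson), from the split of a gene's summed reads between the libraries. CPM intervals are exact Poisson, shares are exact binomial, and differences of ratios carry the exact conditional interval of the odds ratio. Without molecular identifiers, all cover counting error only. Genes were called measured at a mean of at least 1 CPM.

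Named were all listed snRNAs, other snRNA entries and short RNAs of at least 5 CPM, and, of each protein list, genes among the highest, lowest and most read of at least 5 CPM. Symbols were matched for 51996 IDs. Locus entries start within 5 bases of the snRNA and cover at least 90% of it in GENCODE 29. Its coordinates (GRCh38) are not of the build of the counts and are not printed. Some sequences are not reported here. On Poisson counts simulated for this comparison over 57820 gene IDs, the interval held the true ratio for 96.5% of 12506 equal genes. The same held for 94% to 100% of the 50 genes set at each of 4 known folds. As the simulated counts had no spread beyond counting error, this checks the computation of the interval alone. Python 3.11.15, numpy 2.4.6, scipy 1.17.1, biopython 1.88 and matplotlib 3.10.9 were used. Alternatives were DESeq2 1.42.0 size factors, gene read totals, upper quartile factors, totals without mitochondrial and the 10 most-read genes, a prior count of 2, other filters, leaving out each member, medians, and scaling to other short RNAs.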

Additional observations from a re-analysis of the deposited data

How the results depend on the processing

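The log2 ratios of RNU2-59P (1.25 to 1.44), RNU4-1 (0.42 to 0.61), RNU4-2 (0.66 to 0.84) and the entries at the RNU11 (0.32 to 0.51) and RNU12 (0.30 to 0.49) loci stayed above 0 under all 7 alternatives. RNU5A-1 (-0.10 to 0.09) and RNU5B-1 (-0.08 to 0.11) changed sign when scaled to the other short RNAs, and RNU4ATAC (-0.01 to 0.18) did so with both kinds of totals, each with an interval that included 0. The major class, at 0.53, was 0.49 with totals of gene reads, 0.49 with totals without mitochondrial and the most-read genes, 0.46 without RNU2-59P, 0.83 without RNU4-1 and 0.46 as a median. The major minus minor difference with locus entries, at 0.19, was 0.12 without RNU2-59P, 0.50 without RNU4-1 and 0.12 as a median. By gene ID it ran from 0.43 to 0.80 over 12 alternatives. Without RNU4ATAC the minor class by gene ID held no reads and gave no value. Genes at least 2-fold higher numbered 274 with the main settings, 2872 with no filter on level and 32 from 5 CPM. Those at least 2-fold lower numbered 328 with the main settings and 178 with a prior count of 2. They numbered 2029 with no filter and 30 from 5 CPM, since low counts give wide ratios. No paired analysis was possible because each group has 1 library. Depth limits RNU4ATAC most, and how many reads of near-identical copies went uncounted was not measured.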

Other observations

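Pseudogene entries outside the list were also assigned reads. Whether these reads came from the pseudogenes was not tested. Alignments to several places were not counted, so the counts below do not rank the RNAs by level. RNU1-146P, named as a U1 pseudogene, had 412 reads in the control library and 618 in the SRα library, more than the 144 and 205 of all 21 U1 genes together, and a log2 ratio of -0.05 (interval -0.23 to 0.13). RNU5E-4P had 759 and 1295 reads, more than RNU5A-1 or RNU5B-1 in either library, and gave 0.13 (interval 0.005 to 0.27). RNU5A-8P had 138 and 223 reads and gave 0.06. The U1 variant genes RNVU1-6, RNVU1-14, RNVU1-34 and RNVU1-21 gave 0.14, -0.26, -0.10 and 0.12 from 13 to 67 reads each.

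RNU2-29P and RNU2-56P had the same counts, 45 and 81. Low-count U1 pseudogenes RNU1-20P and RNU1-22P gave -0.41 and -0.53 with intervals that included 0.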
